A study of Mus musculus with 19 samples.

Results

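The 10 genes described here mark GABAergic interneurons of the hippocampus and the peptides and calcium-binding proteins by which these cells are classified. They are Gad1 and Gad2 (GABA synthesis), Lhx6, Sst and Pvalb (classes from the medial ganglionic eminence), Vip, Calb2 and Cck (classes from the caudal ganglionic eminence), and Npy and Reln (shared between classes). They were chosen by name, out of 48709 genes counted in each library. RNA came from the microdissected CA1 region of 19 male C57BL/6J mice, each injected in the dorsal hippocampus with lipid nanoparticles. Young mice (3 months, n = 6) and old control mice (16.5 months, n = 6) received control oligonucleotides. Old anti-miR-mix mice (16.5 months, n = 7) received the anti-miR-mix, a blend of inhibitors against miR-146a-5p, miR-148a-3p and also miR-181a-5p. No young group received the anti-miR-mix and no group went without an injection, so the differences below are age under control oligonucleotides, the anti-miR-mix at the old age, and both together.

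Interneurons are a minority of hippocampal neurons and release GABA, which inhibits pyramidal cells. Cells born in the medial ganglionic eminence switch on Lhx6 and mature into fast-spiking parvalbumin cells, which hold the soma and axon initial segment of pyramidal cells in check, and into somatostatin cells, which reach their dendrites. Cells born in the caudal ganglionic eminence include vasoactive intestinal peptide and calretinin (Calb2) cells, many of which inhibit other interneurons, and cholecystokinin basket cells. Neuropeptide Y is made by several of these classes and by neurogliaform cells, and reelin is secreted by dendritic-layer interneurons and by Cajal-Retzius cells. Several members are not restricted to interneurons in this tissue: pyramidal cells also contain Cck mRNA, and mossy cells of the dentate hilus contain calretinin. In bulk tissue, fewer cells of a type and less RNA per cell cannot be told apart.

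The mature sequences of the 3 inhibited microRNAs are shown because the design asks what changes when they are blocked. They are RefSeq sequences with the seed, bases 2 to 8 from the 5′ end, in capitals.
miR-148a-3p: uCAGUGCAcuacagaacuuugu
miR-181a-5p: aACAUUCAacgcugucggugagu
miR-146a-5p: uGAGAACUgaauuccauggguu
The 3 seeds differ. The complement of each seed was searched on the sense strand in the longest annotated 3′ untranslated region of each member (GENCODE M21, GRCm38). For miR-148a-3p the letters searched were TGCACTG, which 0 of the 10 members held. For miR-181a-5p they were TGAATGT, which 1 member held. For miR-146a-5p they were AGTTCTC, which 2 members held. Among 15351 tested genes with such a region, of median length 1165 bases, 14.9%, 18.1% and 12.4% held them, in that order. The 3 member matches are printed below with neighbouring bases, the match in capitals.
Gad2, miR-146a-5p: tcaaactgtttcAGTTCTCtaggtagacag
Lhx6, miR-181a-5p: cgatgacaccacTGAATGTttaggtgggct
Reln, miR-146a-5p: tttatatgaataAGTTCTCgtcgtttgtcc
The Gad2 match lay at chr2:22690371-22690377 on the plus strand, 25 bases into a region of 3528 bases. The Lhx6 match lay at chr2:36083207-36083213 and the Reln match at chr5:21885051-21885057, both on the minus strand. A match describes letters only and is not a measured site. The peptide genes Sst and Npy have 3′ untranslated regions of 156 and 180 bases, so little sequence was available to match.

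The depth of the libraries, in reads assigned to genes, ran from 26653511 to 38908947. All 10 members passed the minimum of 5 reads in 50% of the libraries, which left 19286 genes to test, and the shallowest value of any member was 207 reads (Calb2 in 1 old control library). Old control replicates 5 and 6 were closer to each other than any other pair, with a chi-square per degree of freedom of 2.18 against 6.10 for the next pair, and no member's call changed when they were counted as 1 library. The CA1 pyramidal markers Wfs1, Fibcd1, Mpped1, Pou3f1 and Man1a together reached 725.4 counts per 1000000 reads (CPM) or more in every library. Markers of neighbouring tissue were present too. The summed choroid plexus markers ranged from 16.6 to 103.6 CPM and the dentate granule markers from 44.9 to 110.8 CPM. In young replicate 4, Kl held 13.15 and Ttr 2.55 CPM of the choroid plexus sum. Prox1, also used below as a gene of the caudal classes, held 24.6 to 56.7 CPM of the dentate sum. The neocortex sum ranged from 164.5 to 268.9 CPM and the thalamus sum from 131.9 to 203.7 CPM. Their medians were 240.0 and 180.5 CPM in young and 212.4 and 142.2 CPM in old control libraries, with overlapping ranges. These differences were not tested. The deposited log2 table carried a per-gene term of unstated origin, which gave each library a number from 1 to 4. Libraries that share a number are called processing groups here, a name that no label gives. In order, they held 1, 1, 2 and 2 young and 2, 2, 0 and 2 old control libraries. Of the old anti-miR-mix group they held 1, 2, 3 and 1.

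Levels were compared between members per length, as CPM divided by the merged exon length in kilobases (RPKM), mean ± SD over the 19 libraries. Somatostatin mRNA was the most abundant at 291.5 ± 37.1 RPKM, followed by Cck at 136.2 ± 11.4 RPKM and Npy at 60.3 ± 8.51 RPKM. Gad1 and Gad2, which encode the large and the small isoform of glutamate decarboxylase, stood at 50.1 ± 2.49 and 34.9 ± 1.97 RPKM. Sst and Cck mRNA thus exceeded the mRNA of both enzymes that make the transmitter. Pvalb, which encodes the calcium buffer of fast-spiking cells, reached 38.4 ± 5.29 RPKM, within 1 SD of Gad2. The other members were scarcer. Vip stood at 8.18 ± 0.64 RPKM, Calb2 at 6.21 ± 1.43, the transcription factor gene Lhx6 at 4.94 ± 0.29 and Reln at 4.54 ± 0.55 RPKM. The ranges of mean ± SD overlapped for Npy and Gad1, Pvalb and Gad2, Vip and Calb2, Calb2 and Lhx6, and Lhx6 and Reln. These SDs do not take into account that the members were measured in the same libraries. Reln has the longest merged exon model, 23738 bases, so its rank depends on that length. The order was computed from annotated lengths, and the length of the transcripts in use was not measured.

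No member passed the test in any of the 3 comparisons. With age, 0 of 10 members were called by edgeR's quasi-likelihood test (Benjamini-Hochberg adjusted p under 0.05 over all 19286 genes), where 2.67% of all genes were called. Between old anti-miR-mix and old control 0 of 10 were called, against 0.669% of all genes, and between old anti-miR-mix and young 0 of 10, against 6.2% of all genes. At an unadjusted p under 0.05 the counts were 1, 1 and 0 members, against 18.1%, 10.5% and 19.6% of all genes, and DESeq2 and limma-voom also called 0 in each comparison. The libraries of the groups overlapped for every member in every comparison, while 2.54%, 0.498% and 2.42% of all genes separated completely. With 10 members, 0 is close to the count these shares give. The median absolute log2 fold change over the members was 0.06, 0.06 and 0.04, and over all genes tested 0.09, 0.07 and 0.08.

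**Figure D1:**
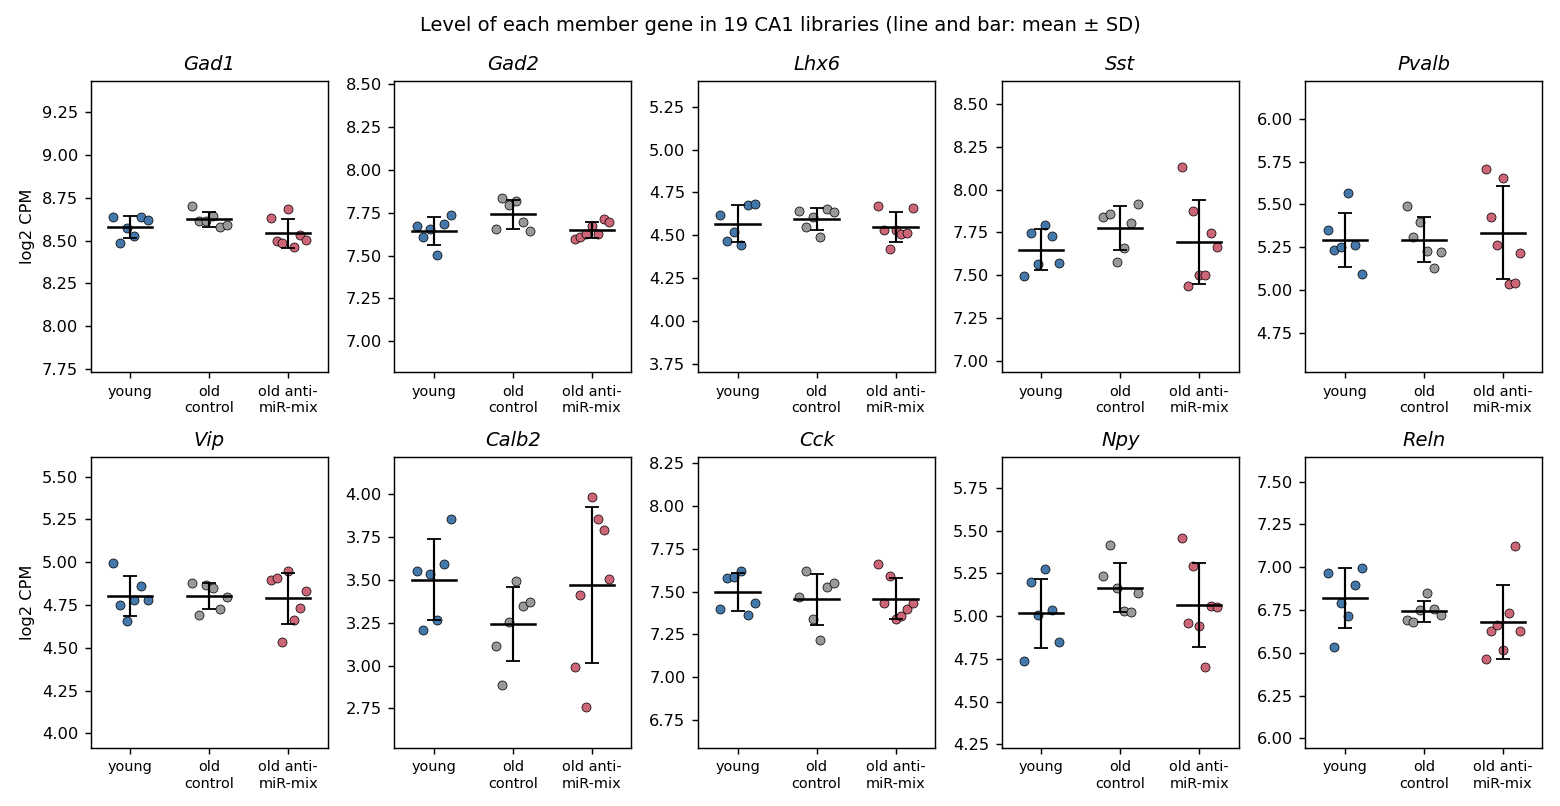
Level of each member (y axis, log2 CPM, a span of 1.7 in each panel) in the 3 groups of libraries, 1 point per mouse, with mean ± SD. The groups overlap in all 10 panels, the Gad1, Gad2 and Lhx6 points lie close together, and the Calb2 points of the old anti-miR-mix group spread from 2.76 to 3.98.

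Gad1 and Gad2 had the narrowest spread of the members. Gad1 ranged from 358.8 to 397.9 CPM (median 387.1) in young libraries, from 382.1 to 416.6 CPM (median 391.4) in old control and from 352.4 to 410.6 CPM (median 362.8) in old anti-miR-mix libraries. Its log2 fold change was 0.04 ± 0.04 (SE) with age and -0.08 ± 0.04 between the old groups, with adjusted p of 0.629 and 0.490 in edgeR's quasi-likelihood test. The antisense gene Gad1os lies over Gad1 and had a median of 5 reads per library, and the library kit does not mark strand.

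Gad2 was the member nearest to a call. It ranged from 181.7 to 213.3 CPM (median 202.7) in young, from 200.3 to 228.2 CPM (median 214.6) in old control and from 193.2 to 209.9 CPM (median 197.9) in old anti-miR-mix libraries. The 3 highest libraries of the series, at 222.2, 225.9 and 228.2 CPM, were all old control, and the other 3 old control libraries lay among those of the other groups. The log2 fold change was 0.10 with age (95% interval 0.01 to 0.19, edgeR unadjusted p = 0.0296, adjusted p = 0.214) and -0.09 for old anti-miR-mix against old control (interval -0.18 to -0.01, unadjusted p = 0.0295, adjusted p = 0.400). Both comparisons use the same old control libraries. An exact two-sided permutation test over the libraries gave p = 0.0693 and p = 0.0332, before any correction for the 10 members. Between old anti-miR-mix and young the log2 fold change was 0.00. Within processing groups that held both groups, the age difference in Gad2 was positive in 2 of 3 (-0.04 to 0.20), and the difference of old anti-miR-mix from old control was negative in 2 of 3 (-0.16 to 0.04).

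The intervals of the glutamate decarboxylase genes show which changes in these mRNAs the data allow. Over Gad1 and Gad2, the 95% intervals reached from 2.87% lower to 13.7% higher with age, and from 11.7% lower to 0.119% higher for old anti-miR-mix against old control. Between old anti-miR-mix and young they reached from 7.91% lower to 6.28% higher. Missing the threshold does not show that the levels were equal. The values depend on the scaling: relative to 7 pan-neuronal genes, the log2 fold change between the old groups was -0.02 for Gad1 and -0.03 for Gad2, against -0.08 and -0.09 with TMM factors. The summed microglial markers had a median of 409.2 CPM in old control and 536.7 CPM in old anti-miR-mix libraries, and the astrocyte markers 2638 and 3048 CPM, with ranges that overlapped. Their part in the Gad1 and Gad2 differences was not tested.

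Lhx6, the transcription factor that marks cells from the medial ganglionic eminence throughout life, varied a little more than the glutamate decarboxylase genes. Its SD of log2 CPM within groups, pooled, was 0.09, against 0.07 for Gad1 and for Gad2. It ranged from 21.7 to 25.6 CPM (median 23.7) in young, from 22.4 to 25.1 CPM (median 24.6) in old control and from 21.3 to 25.4 CPM (median 23.1) in old anti-miR-mix libraries. The log2 fold change was 0.03 with age (95% interval -0.08 to 0.13), -0.05 between the old groups (-0.15 to 0.06) and -0.02 between old anti-miR-mix and young (-0.13 to 0.08). The 3 groups thus covered nearly the same range.

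Sst and Pvalb, the products of the 2 main medial classes, varied more from mouse to mouse. Sst ranged from 180.3 to 221.7 CPM (median 201.1) in young, from 190.7 to 241.1 CPM (median 226.1) in old control and from 173.5 to 279.9 CPM (median 202.9) in old anti-miR-mix libraries. The lowest and the highest Sst libraries of the series were both old anti-miR-mix. The age difference was 0.13 on the log2 scale (95% interval -0.07 to 0.32, edgeR adjusted p = 0.523) and the difference between the old groups -0.07 (-0.26 to 0.12, adjusted p = 0.862).

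Pvalb ranged from 34.1 to 47.4 CPM (median 38.3) in young, from 34.9 to 44.8 CPM (median 38.5) in old control and from 32.7 to 52.2 CPM (median 38.4) in old anti-miR-mix libraries, so the medians nearly coincided. Its log2 fold change was 0.00 with age (95% interval -0.22 to 0.22) and 0.06 between the old groups (-0.16 to 0.27), so the interval between the old groups allows changes from 10.2% lower to 20.3% higher.

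Vip and Cck, of the caudal classes, had log2 fold changes no larger than 0.04 in size in any comparison. Vip ranged from 25.1 to 31.9 CPM (median 27.4) in young, from 25.8 to 29.3 CPM (median 28.2) in old control and from 23.1 to 30.8 CPM (median 28.5) in old anti-miR-mix libraries. Its log2 fold changes were 0.00 with age (95% interval -0.14 to 0.13), -0.01 between the old groups (-0.14 to 0.12) and -0.01 between old anti-miR-mix and young (-0.15 to 0.12). The old control range lay inside that of each other group.

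Cck ranged from 164.4 to 196.6 CPM (median 181.8) in young, from 148.6 to 196.9 CPM (median 180.7) in old control and from 162.1 to 202.2 CPM (median 172.7) in old anti-miR-mix libraries. The log2 fold change was -0.04 with age (95% interval -0.18 to 0.10) and 0.00 between the old groups (-0.13 to 0.14). Both the lowest and the next to highest Cck libraries were old control.

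Calretinin mRNA had the largest differences of group means among the members, in opposite directions, and also the widest errors. Calb2 ranged from 9.17 to 14.4 CPM (median 11.6) in young, from 7.34 to 11.2 CPM (median 9.79) in old control and from 6.69 to 15.8 CPM (median 11.3) in old anti-miR-mix libraries. In the old anti-miR-mix group, replicates 4, 5 and 6 stood at 15.8, 14.4 and 13.8 CPM and replicates 1 and 3 at 7.90 and 6.69 CPM, so the group covered the whole range of old control. The log2 fold change was -0.26 ± 0.17 (SE) with age (edgeR adjusted p = 0.447) and 0.27 ± 0.16 between the old groups (adjusted p = 0.592). Their 95% intervals were -0.62 to 0.09 and -0.07 to 0.61. The exact two-sided permutation p was 0.0801 and 0.286. Both differences were measured against the same 6 old control libraries, and old anti-miR-mix stood 0.01 above young (-0.33 to 0.35). Within processing groups the age difference went from -0.55 to 0.17, below 0 in 2 of 3.

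**Figure D2:**
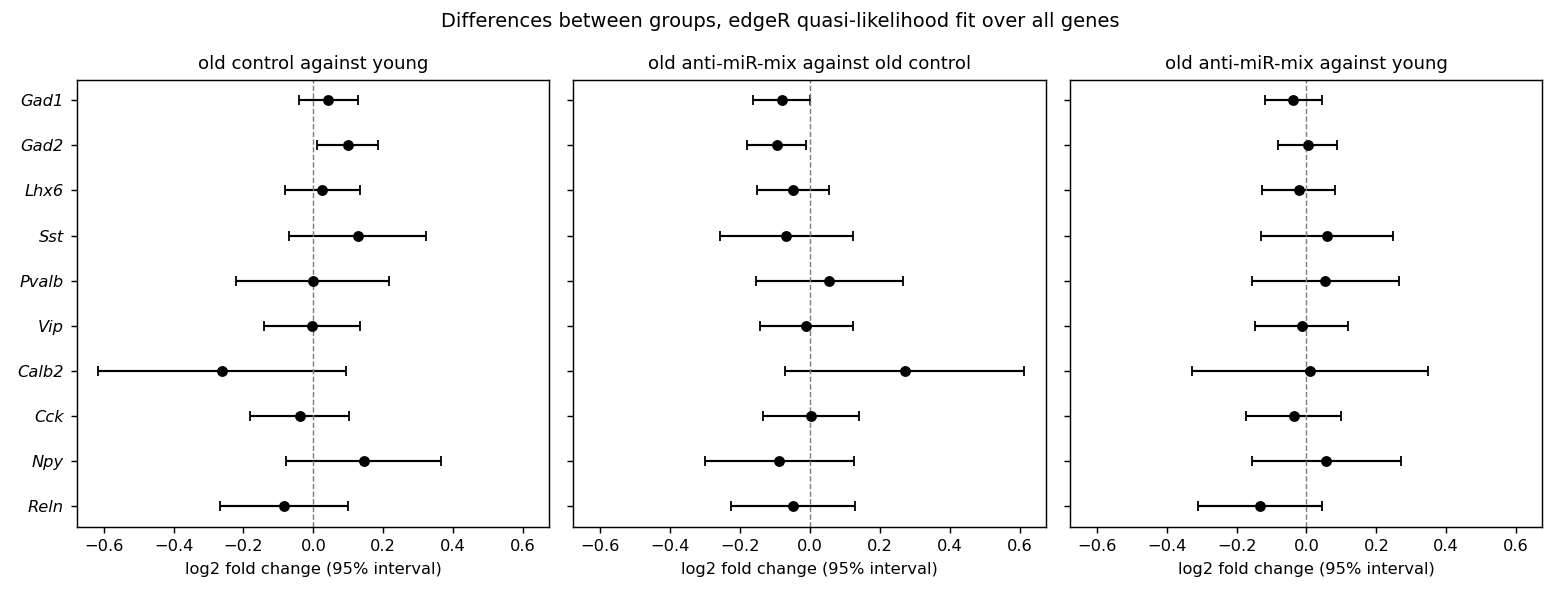
Log2 fold change (x axis) with its 95% interval for each member (y axis) in old control against young, old anti-miR-mix against old control, and old anti-miR-mix against young. All intervals include 0 except those of Gad2 in the first 2 panels, which end at 0.01 and -0.01, and the Calb2 intervals are the widest.

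Npy and Reln, which several classes share, had group means that differed by less than the SD within the young and the old anti-miR-mix groups. The old control SDs of log2 CPM were smaller, 0.145 for Npy and 0.062 for Reln, and the largest differences of means exceeded them. Npy ranged from 26.6 to 38.6 CPM (median 32.4) in young, from 32.5 to 42.5 CPM (median 35.5) in old control and from 26.0 to 43.9 CPM (median 33.2) in old anti-miR-mix libraries. The highest and the lowest Npy libraries were both old anti-miR-mix. The age difference was 0.14 on the log2 scale (95% interval -0.08 to 0.37, edgeR adjusted p = 0.516), and between the old groups it was -0.09 (-0.30 to 0.12, adjusted p = 0.833).

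Reln ranged from 92.6 to 127.6 CPM (median 115.0) in young, from 102.5 to 115.3 CPM (median 106.5) in old control and from 88.3 to 139.6 CPM (median 98.7) in old anti-miR-mix libraries. A single old anti-miR-mix library, replicate 6, held the 139.6 CPM, and the other 6 of that group lay between 88.3 and 106.1 CPM. Between old anti-miR-mix and young the log2 fold change was -0.13 (95% interval -0.31 to 0.04, edgeR adjusted p = 0.419), and the exact two-sided permutation p was 0.226. Without replicate 6 it was -0.22, with an adjusted p of 0.0434 and an exact permutation p of 0.0303, the only call of a member under any setting tried. With age the log2 fold change was -0.08 (-0.27 to 0.10), and between the old groups -0.05 (-0.23 to 0.13). Between old anti-miR-mix and young, the difference in Reln within the 4 processing groups ran from -0.50 to 0.18, positive in 2 of them.

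The class genes were also set against the mean of Gad1 and Gad2 in the same library. This removes only what a gene shares with that mean, and r between Gad1 and Gad2 was itself 0.24 after subtracting group means. On the log2 scale the difference of Lhx6 from that mean was -3.54 ± 0.05 (SD, n = 6) in young, -3.59 ± 0.10 (n = 6) in old control and -3.55 ± 0.09 (n = 7) in old anti-miR-mix libraries, the steadiest of the class genes in young mice. In the same order of groups, Sst stood at -0.46 ± 0.17, -0.41 ± 0.16 and -0.40 ± 0.25, and Calb2 at -4.61 ± 0.18, -4.94 ± 0.23 and -4.62 ± 0.44. For Calb2 the old control mean was the lowest by this measure too, and the SD of the old anti-miR-mix group exceeded the difference of the means. Gad1 and Gad2 were themselves highest in old control, with mean log2 CPM of 8.62 and 7.74 against 8.58 and 7.64 in young. The measure is therefore no separate evidence for Calb2.

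Members differed in their spread across mice. The SD of log2 CPM within groups was 0.07 for Gad1 and Gad2 and 0.09 for Lhx6, against a median of 0.10 over the 12780 genes that averaged 100 reads or more. Vip and Cck stood at 0.12 and 0.13, Reln at 0.17, Sst at 0.18, Pvalb at 0.20, Npy at 0.20 and Calb2 at 0.33. Calb2 varied more than 97.2% of those genes, and its highest library exceeded its lowest by 2.34-fold. Gad1 varied more than 17.8% of them, and its highest library exceeded its lowest by 1.18-fold. Pooled over the groups, Gad1, Gad2 and Lhx6 thus had smaller SDs than the other 7 members, although in old control alone the SD of Vip (0.076) was below that of Gad2 (0.085). The SD of the old anti-miR-mix group was the largest of the 3 groups in 7 of 10 members, Gad1 (0.08), Vip (0.15), Sst (0.25), Pvalb (0.27), Npy (0.24), Calb2 (0.46) and Reln (0.22), a difference in spread that was not tested.

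Members also varied together. Across the 19 libraries, after subtracting group means, Pearson's r of log2 CPM was 0.81 for Sst and Npy, 0.73 for Cck and Npy, 0.72 for Sst and Cck and 0.64 for Gad1 and Vip. Calb2 ran the other way, with r of -0.81 with Npy, -0.74 with Cck and -0.65 with Sst. These are descriptions over 45 pairs in the same libraries, whose median r was 0.03, with 6 pairs above 0.5 and 5 below -0.5. Leaving out the 2 libraries farthest from the median left -0.76 for Calb2 and Npy. After the processing group was also subtracted, Calb2 and Npy stood at -0.80 and Calb2 and Sst at -0.77. Libraries in which somatostatin, cholecystokinin and neuropeptide Y mRNA were all high were thus libraries with little calretinin mRNA.

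**Figure D3:**
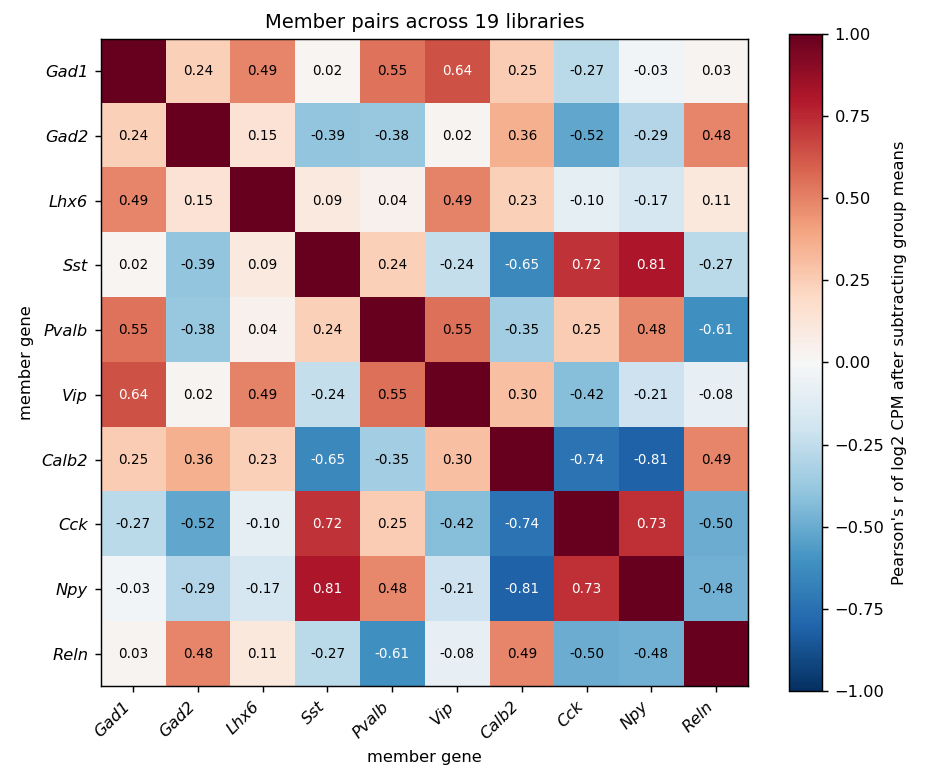
Pearson's r (colour and number) between each pair of members over 19 libraries, from log2 CPM after subtracting group means. Sst, Cck and Npy form a block of values from 0.72 to 0.81, and Calb2 is negative with all 3.

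The pairings followed other features of the libraries. Sst had r of 0.716 and Cck of 0.735 with the summed CA1 pyramidal markers, and Calb2 had -0.615. The largest r of Sst was with the summed mossy cell markers (0.844), with which Calb2 had -0.361. That sum, taken without Calb2, was mostly Ap2s1 (77.7 to 90.9 CPM) and Ajap1 (23.0 to 39.8 CPM). Its other genes stayed at or below 2.82 CPM, so this r mostly describes Ap2s1 and Ajap1. The nearest genes to Npy were Psmb6, Polr2e and Rrp7a (r 0.91, 0.89 and 0.88), those to Sst were B9d2, Edf1 and Hras (0.90 each), and those to Cck were Akt1, B4galnt1 and Nrgn (0.93, 0.92 and 0.92). Nrgn encodes neurogranin, a protein of excitatory neurons, and Psmb6 and Polr2e encode subunits of the proteasome and of RNA polymerases. The nearest genes to Calb2 were Pkia, Cd200 and Trhr (0.92, 0.92 and 0.88). None of these 12 neighbours is in the interneuron lists used here. Pvalb had r of 0.70 with the summed oligodendrocyte markers, and Vip 0.76 with the CA3 pyramidal markers, the largest of each over all marker lists. Vip also had 0.65 with the neocortex, 0.64 with the striatum and 0.62 with the thalamus markers, and -0.63 with the CA1 pyramidal markers. In the CA3 sum, Grik4 held 23.7 to 33.8 CPM and Coch 3.24 to 11.5 CPM. The part of dissection in these relations was not tested.

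Libraries also differed in how strongly counts followed the GC content of the transcript, with slopes from -0.11 to 0.11 log2 units per 10 points of GC. Over the libraries, Sst had r of 0.69 with that slope, Cck 0.53 and Gad2 -0.68. When each library's smooth trend on GC content and exon length was removed, r was -0.81 for Calb2 and Npy and 0.78 for Sst and Npy. Other pairs weakened, to 0.67 for Cck and Npy, 0.59 for Sst and Cck, -0.63 for Calb2 and Cck and -0.61 for Calb2 and Sst. With the trend removed, 0 members were called in each comparison. Under this setting Gad2 had a log2 fold change of 0.09 with age (edgeR adjusted p = 0.147) and -0.09 between the old groups (adjusted p = 0.267).

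**Figure D4:**
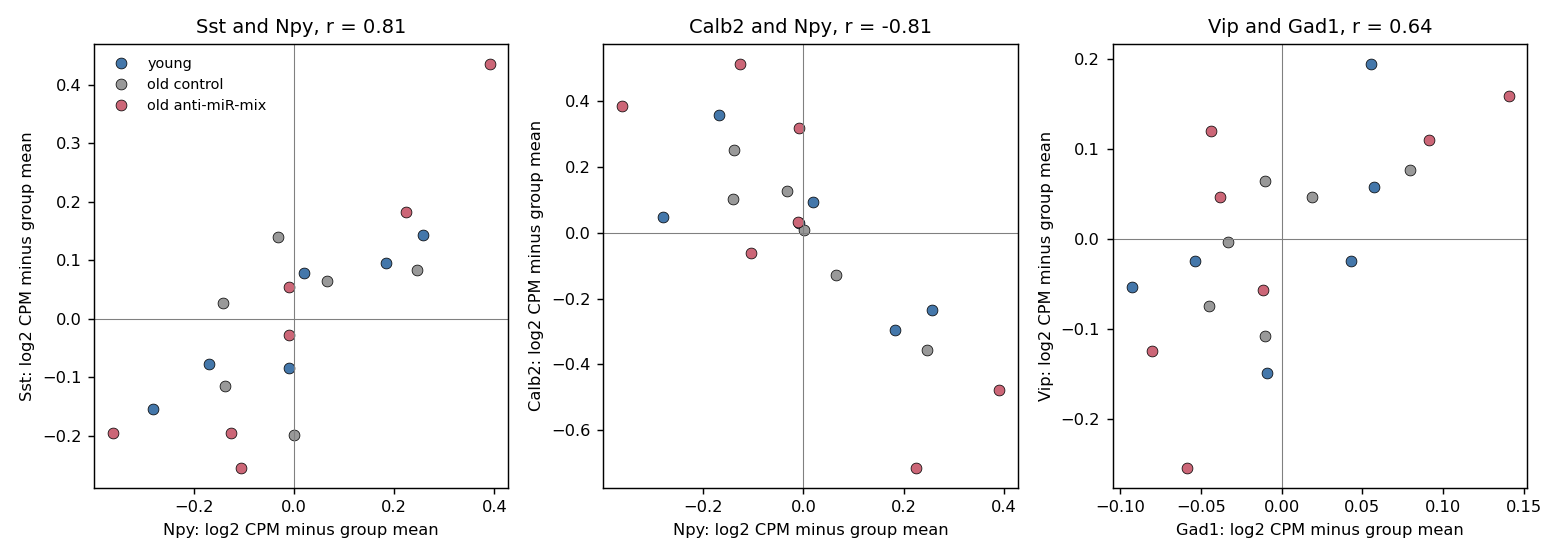
Log2 CPM minus the group mean, 1 point per library and coloured by group, for Sst against Npy, Calb2 against Npy, and Vip against Gad1. Points of all 3 groups lie along each trend, rising for Sst and Npy (r = 0.81) and for Vip and Gad1 (r = 0.64) and falling for Calb2 and Npy (r = -0.81).

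The wider interneuron program was read from 62 further genes, of which 60 were tested (all but Lhx8 and Cckar, which had too few reads). With age 3 rose and 1 fell, between the old groups 0 passed the test, and between old anti-miR-mix and young 0 rose and 2 fell, against 2.67%, 0.669% and 6.2% of all genes. At an unadjusted p under 0.05, 9 of the 60 passed between the old groups, against 10.5% of all genes, and DESeq2 called 1, Nos1. Their median log2 fold change was 0.02, -0.06 and -0.02, and over all genes tested it was 0.01, 0.00 and 0.00. The balance of these counts depended on the setting. Scaling by pan-neuronal genes gave 2 that rose and 1 that fell between old anti-miR-mix and young, and a median of 0.01 between the old groups, where all genes had 0.06. With processing group in the fit the first of these counts was 2 and 3, and with age DESeq2 gave 5 that rose and 3 that fell. Several genes belong to more than 1 cell type: Prox1 is also expressed by dentate granule cells and Cxcl14 by Cajal-Retzius cells.

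The 6 genes of GABA packaging, uptake and breakdown and the 5 pan-GABAergic transcription factors held 0 calls in every comparison, like Gad1 and Gad2. Slc32a1, the vesicular GABA transporter, averaged 59.3 ± 1.43 CPM (SD) in young, 60.0 ± 4.66 CPM in old control and 57.6 ± 4.49 CPM in old anti-miR-mix libraries, and these means differed by less than the SD of the old anti-miR-mix group. Dlx1, a transcription factor of the whole interneuron lineage, had a log2 fold change of 0.02 with age and -0.03 between the old groups. Log2 fold changes of the 6 GABA handling genes ran from -0.76 to 0.07 with age and from -0.07 to 0.28 between the old groups. The -0.76 and the 0.28 belonged to the gene with the fewest reads in the list (mean 20.1 per library), with SEs of 0.47 and 0.48.

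With age, 2 of the 8 caudal genes and 1 of the 4 neurogliaform genes rose, and 1 reelin pathway gene, Fyn, fell. Sncg, γ-synuclein, a marker of cholecystokinin basket cells, stood between 1.29 and 1.83 CPM in young and between 2.12 and 3.43 CPM in old control libraries, with no overlap. It rose by 0.66 on the log2 scale (1.58-fold, 95% interval 1.30 to 1.93, edgeR adjusted p = 0.0120). It is a low gene, with a mean of 65.4 reads per library. Nos1, neuronal nitric oxide synthase, of neurogliaform and ivy cells, lay between 87.7 and 112.2 CPM in young and between 118.9 and 138.6 CPM in old control libraries. It rose by 0.32 on the log2 scale (interval 0.19 to 0.46, edgeR adjusted p = 0.0108). Sncg and Nos1 stayed called when any 1 library was left out and in all 14 other alternatives. The other 3 neurogliaform genes were not called with age: Lamp5, a membrane protein gene that marks these cells, had a log2 fold change of -0.31 (edgeR adjusted p = 0.0605), the chemokine gene Cxcl14 -0.12 and the remaining gene 0.07.

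Htr3a, the serotonin receptor subunit that marks the caudal classes, rose by 0.33 with age (edgeR adjusted p = 0.0384), from 7.22 ± 1.03 CPM in young to 9.05 ± 0.73 CPM in old control libraries. That call was lost when any of 9 single libraries was left out (old control 2 to 6 and young 1, 3, 4 and 5, adjusted p up to 0.0938). It was also lost in 7 of the 14 other alternatives, with adjusted p up to 0.114. These were no filter on low counts, old control replicates 5 and 6 as 1 library, only the groups compared, the replicate block, pan-neuronal scaling, and processing group in the fit with and without the merged library. Of the 8 caudal genes, Sncg and Htr3a were the 2 called. Cnr1, the cannabinoid receptor of cholecystokinin basket cells, averaged 218.5 ± 24.9 CPM in young and 261.6 ± 11.9 CPM in old control libraries, with a log2 fold change of 0.26 (adjusted p = 0.0560). The 3 caudal members themselves, Vip, Calb2 and Cck, had log2 fold changes of 0.00, -0.26 and -0.04 in the same comparison.

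In old anti-miR-mix libraries the means of the same 3 genes lay between those of the other groups. These genes were named because old control was called above young, and both comparisons use the same old control libraries. A mean below old control is therefore no separate evidence of a difference. In old anti-miR-mix libraries Sncg averaged 2.12 ± 0.33 CPM, Nos1 109.5 ± 10.4 CPM and Htr3a 8.61 ± 0.51 CPM. Against old control, Nos1 had a log2 fold change of -0.23 (interval -0.37 to -0.10, edgeR unadjusted p = 0.00145, adjusted p = 0.108), which missed the threshold. DESeq2 (adjusted p = 0.0374) and the fit with the replicate block (0.0164) called it, and the other 12 alternatives and the 19 fits without a library did not, with adjusted p up to 0.772. Against young, Sncg had 0.43 (adjusted p = 0.0586) and Htr3a 0.26 (adjusted p = 0.0621), and neither was called. Each lay near the threshold and passed it in 6 of the 14 other alternatives, DESeq2 and pan-neuronal scaling among them. Adjusted p over these alternatives ran from 0.0229 to 0.162 for Sncg and from 0.0248 to 0.152 for Htr3a.

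**Figure D5:**
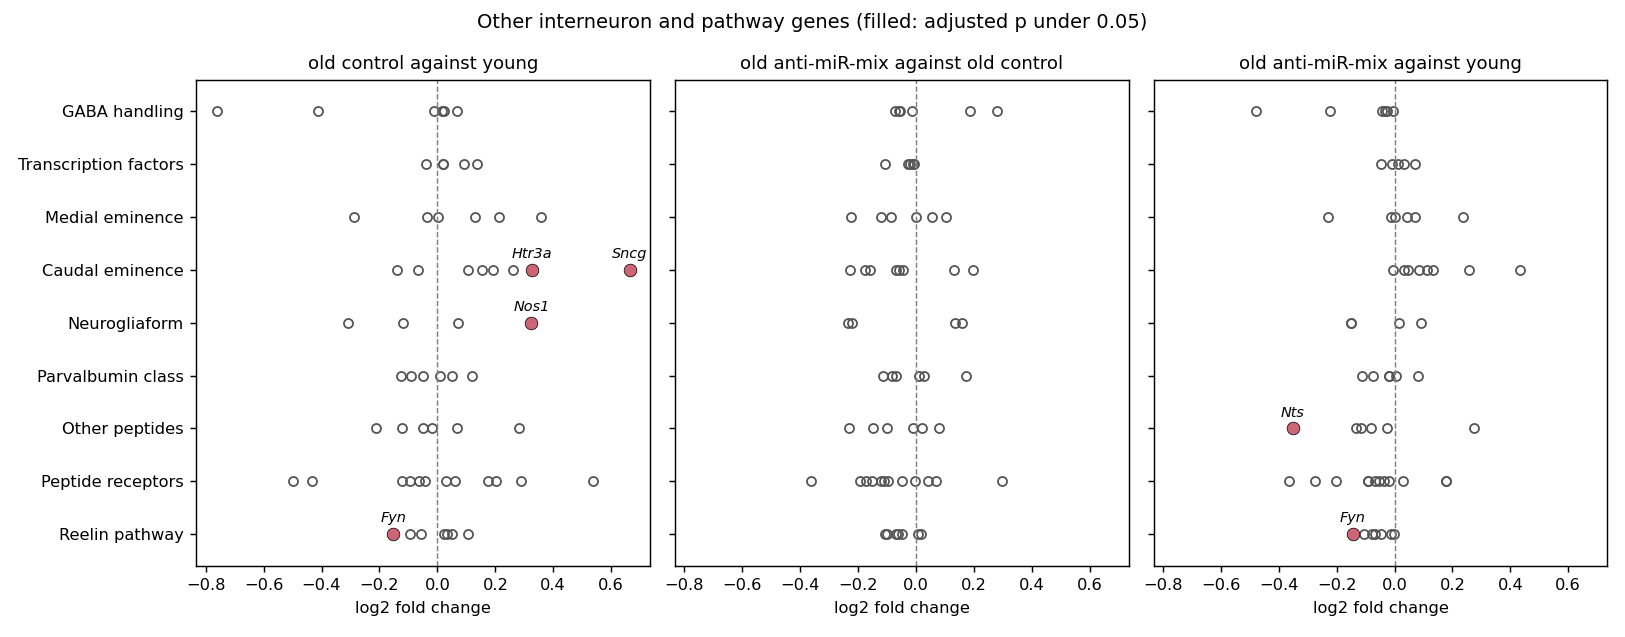
Log2 fold change (x axis) of the 60 further genes tested, by list (y axis), in the 3 comparisons, with filled and named points for an adjusted p under 0.05. Sncg, Htr3a, Nos1 and Fyn are called with age, 0 genes between the old groups, and Nts and Fyn between old anti-miR-mix and young.

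The remaining calls fell among the peptide and reelin pathway lists, and the medial list held 0. Fyn, the kinase that phosphorylates Dab1 after reelin binding and acts in many other pathways, lay between 123.5 and 139.8 CPM in young, above every old control library (112.2 to 120.7 CPM) and every old anti-miR-mix library (111.6 to 122.9 CPM). It fell by 0.15 with age and by 0.14 between old anti-miR-mix and young on the log2 scale (edgeR adjusted p = 0.0194 and 0.00850). The age call was lost without young replicate 4 (adjusted p = 0.0554), with no filter on low counts (0.0564) and with processing group in the fit (0.0530, and 0.102 when replicates 5 and 6 of old control were also merged). The call between old anti-miR-mix and young was lost with the replicate block (0.139) and with pan-neuronal scaling (0.103). A pair of antisense genes over Fyn had a median of 60 and 33 reads. Of the other 6 reelin pathway genes, the receptor genes Vldlr and Lrp8 and the adaptor gene Dab1 among them, 0 were called.

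Nts, the peptide neurotensin, was lower in old anti-miR-mix than in young libraries by 0.35 on the log2 scale (edgeR adjusted p = 0.0298), at 14.5 ± 2.19 against 18.4 ± 2.37 CPM. The call was lost when any of 9 single libraries was left out (old anti-miR-mix 2, 3, 4, 6 and 7 and young 2, 3, 5 and 6, adjusted p up to 0.0785), when only these groups were fitted (0.0516) and with the replicate block (0.104).

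The receptors of the member peptides and the parvalbumin class genes held 0 calls. Of 13 receptor genes for somatostatin, neuropeptide Y, vasoactive intestinal peptide and cholecystokinin 12 were tested, with log2 fold changes from -0.50 to 0.54 with age and from -0.36 to 0.30 between the old groups. The 0.54 and the -0.36 belonged to the tested receptor gene with the fewest reads (mean 12.3 per library). Cckbr, the main cholecystokinin receptor of the brain, averaged 21.3 ± 3.65 CPM in young and 15.1 ± 1.97 CPM in old control libraries, with an unadjusted p of 0.00707 in edgeR's quasi-likelihood fit and an adjusted p of 0.112. Kcnc1, a potassium channel gene of fast-spiking cells, had a log2 fold change of -0.12 with age and 0.01 between the old groups, and Erbb4, the neuregulin receptor of these cells, 0.01 and -0.08.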

How the data were processed

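RNA-seq libraries (TruSeq RNA kit v2, polyadenylated RNA, single-end reads of 50 bases) were aligned by the authors to mm10 with STAR 2.5.2b and counted per gene with featureCounts (Subread 1.5.1), per the labels. The deposited counts are raw reads per Ensembl gene. The deposited log2 table (18761 genes) holds log2(CPM + 1) less a per-gene term recovered to within 3.4e-08. That term is a slope times a number from 1 to 4 for each library, which defines the processing groups. Its origin is not stated. Strand and multi-mapping options are not given in the sources used here, and the kit does not mark strand. Groups came from the description of each library, which names the group and replicate. In both control groups each library's title also opens with anti-miR-mix, which its description leaves out. The descriptions were followed, and that these mice received control oligonucleotides is from the study's methods. Each library was taken as 1 mouse, and p-values measure the spread between these libraries.

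Gene symbols and coordinates were from GENCODE M21 (GRCm38). Following the study's methods, a gene was tested where 50% or more of the libraries had 5 reads of it. All 19 libraries entered 1 edgeR (4.0.16, R 4.3.3) quasi-likelihood fit with TMM factors and no covariate, with Benjamini-Hochberg adjustment over all genes tested. DESeq2 (1.42.0) and limma (3.58.1) were alternatives. Intervals of the fold change use edgeR's moderated degrees of freedom. Log2 CPM used a prior count of 2, and a prior count of 0.5 shifted no member's value by more than 0.0102. The fits were tested on simulated data. The members and gene lists were chosen with earlier results of these data known. All 10 members are named, and of the further genes those past the threshold, or otherwise at most 3 of highest count in a list. Neighbours of a member are the 3 genes, of those averaging 100 reads or more, with the highest r to it. Slc32a1, Vldlr, Lrp8 and Cckbr fall outside this rule and were named after their values were seen. The removal of the GC and length trend, and processing group in the fit with old control replicates 5 and 6 as 1 library, were alternatives added after seeing the data. A few genes of the lists are not reported here and were left out of the lists' counts and sums.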

Additional observations from a re-analysis of the deposited data

Results flagged for a closer look

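Of 30 sets of values (10 members in 3 groups) examined for a library far from its group, 1 stood out: Reln in old anti-miR-mix replicate 6, at 7.13 log2 CPM, where the other 6 libraries of the group lay between 6.46 and 6.73. Its gap to the nearest library was 0.60 of the whole range of the group. Chance alone marks about 1 in 20 groups.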

How the results depend on the processing

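The number of members called was 0 in each of the 3 comparisons under all 14 alternatives other than leaving out 1 library. Leaving out each library in turn gave 0 with age, 0 between the old groups and 0 to 1 between old anti-miR-mix and young (Reln, without old anti-miR-mix replicate 6). Of 990 member differences recomputed, 989 stayed on their side of the threshold and 913 kept their sign, and no difference above 0.06 on the log2 scale changed sign. The largest shift was 0.10 (Calb2 between the old groups, 0.37 without old anti-miR-mix replicate 3). With the trend on GC and length removed, Npy between old anti-miR-mix and young went from 0.06 to -0.04. The replicate block takes replicate number as a factor, fits only the groups compared and leaves out old anti-miR-mix replicate 7. With it, 0 members were called in each comparison. The numbers did not pair the libraries: correlations of same-numbered libraries ran from -0.46 to 0.44. The counts over all genes depended more on the setting. They ran from 214 (without young replicate 4) to 1138 (replicate block) with age around 514, from 6 to 285 between the old groups around 129, and from 656 (replicate block) to 1531 between old anti-miR-mix and young around 1196. The 6 came with processing group in the fit and old control replicates 5 and 6 as 1 library, and processing group alone gave 9. The cause was not tested.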
